A study of Homo sapiens with 12 samples.

Results

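Keratin RNAs of basal and of luminal type were followed through 12 RNA-seq libraries of triple-negative breast cancer cell lines. The 10 genes were taken by symbol (KRT5, KRT6A, KRT7, KRT8, KRT14, KRT16, KRT17, KRT18, KRT19 and KRT81), out of 28512 genes named in the files. The study asked how such cells respond to blocking BET bromodomains, BAZ2A/B bromodomains, or both. All 10 averaged 10 or more across the libraries, the minimum for testing, and so were among the 14232 genes tested.

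Keratins are the intermediate filament proteins of epithelial cells, and a filament is built from pairs of a type I and a type II keratin. Simple epithelia, including the luminal cells of the breast, carry KRT8 with KRT18, together with KRT7 and KRT19. Basal cells of stratified epithelia and of the mammary gland carry KRT5 with KRT14, while KRT6A, KRT16 and KRT17 are keratins of activated and wounded epidermis, and KRT81 is a type II keratin of hair. In breast cancer the basal keratins are used as markers of basal-like tumours and simple keratins as markers of luminal ones. The division is not strict, as each of these triple-negative lines carried KRT7, KRT8 and KRT18.

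Cells of each line were treated for 72 h in 4 ways, with JQ1, with GSK2801, with the 2 together, and with the solvent DMSO as the control. JQ1 is an inhibitor of the BET bromodomain proteins, and GSK2801 of BAZ2A and BAZ2B. SUM159 received 300 nM JQ1, MDAMB231 100 nM and HCC1806 500 nM, and all received 10 µM GSK2801. SUM159 and MDAMB231 were kept in DMEM/F12 to which 5% serum, hydrocortisone and insulin were added, and HCC1806 in RPMI 1640 with 10% serum, so for HCC1806 the line, the medium and the JQ1 dose cannot be told apart. There was 1 library per line and treatment, the lines serve as the replicates of a treatment (n = 3), and nothing in the labels speaks of repeated cultures. P-values for a treatment therefore measure the spread between lines, not between cultures of a line.

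Each library rested on an estimated 24200000 to 46800000 reads, with a signal for 15766 to 16797 genes. Values are that deposited signal, estimated reads scaled to the same upper quartile in each library, and 1 read was worth 0.667 to 1.17 of it. The 10 keratins held between 0.129% and 0.696% of a library's signal. HEXIM1, a gene known to rise under BET inhibition, was 2.15 to 2.5 times its DMSO value in the 3 JQ1 libraries. Of the receptors whose absence defines triple-negative cancer, PGR stayed between 0 and 12.1 and ESR1 between 0 and 138, highest in HCC1806, while ERBB2 RNA ranged from 1749 to 6456. The mesenchymal filament gene VIM ranged from 90380 to 142200 in SUM159 and MDAMB231 and from 46.9 to 173 in HCC1806. Conversely the epithelial adhesion gene CDH1 ranged from 14150 to 27120 in HCC1806 and from 1.06 to 33.2 in the other lines.

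The keratin genes sit in 2 clusters of near-copies, and that bears on how their reads can be assigned. Positions are from GENCODE v29 on GRCh38, the build named for the files as hg38. On chromosome 12 lie KRT7 (chr12:52232520-52252186, plus strand), KRT81 (chr12:52285913-52291534, minus), KRT6A (chr12:52487174-52493257, minus) and KRT5 (chr12:52514575-52520687, minus). KRT8 (chr12:52897187-52949954, minus) and KRT18 (chr12:52948871-52952901, plus) overlap at their ends on opposite strands. On chromosome 17, all on the minus strand, lie KRT19 (chr17:41523617-41528308), KRT14 (chr17:41582279-41586921), KRT16 (chr17:41609778-41615899) and KRT17 (chr17:41619441-41624842).

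The type I keratins KRT14, KRT16 and KRT17 are shown first, because the results below turn on them and a short read cannot always separate them. KRT14 coding sequence was 87.7% identical to that of KRT16 and 85.1% to that of KRT17. The most alike 60-base stretch of their coding exons reads as follows, 5′ to 3′ on the minus strand of GRCh38, with capitals where a base differs from KRT14.
KRT14, chr17:41586424-41586483: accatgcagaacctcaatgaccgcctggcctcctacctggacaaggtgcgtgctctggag
KRT16, chr17:41612272-41612331: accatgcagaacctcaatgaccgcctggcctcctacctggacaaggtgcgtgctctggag
KRT17, chr17:41624192-41624251: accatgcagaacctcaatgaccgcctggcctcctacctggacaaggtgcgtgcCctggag
KRT14 and KRT16 did not differ in this stretch, and KRT17 differed at 1 base. The least alike stretch of the same exons separates KRT17 at 23 of 60 bases but KRT16 at only 4.
KRT14, chr17:41586317-41586376: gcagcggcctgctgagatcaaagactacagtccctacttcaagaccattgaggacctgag
KRT16, chr17:41612165-41612224: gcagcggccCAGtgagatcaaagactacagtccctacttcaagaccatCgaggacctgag
KRT17, chr17:41624085-41624144: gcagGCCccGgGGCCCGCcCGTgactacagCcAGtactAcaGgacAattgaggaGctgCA

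KRT81 is shown with its neighbours KRT83 and KRT86 for the same reason. Their coding sequences were 92.5% (KRT83) and 93.3% (KRT86) identical to that of KRT81. In the least alike 60-base stretch, capitals again mark differences from KRT81, and KRT81 and KRT83 are read from the minus strand and KRT86 from the plus strand.
KRT81, chr12:52286428-52286487: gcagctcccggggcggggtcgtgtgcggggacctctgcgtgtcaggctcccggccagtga
KRT83, chr12:52314753-52314812: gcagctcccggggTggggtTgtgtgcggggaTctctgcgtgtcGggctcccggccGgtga
KRT86, chr12:52308410-52308469: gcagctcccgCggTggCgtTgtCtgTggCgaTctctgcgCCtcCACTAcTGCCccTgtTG
KRT86 differed from KRT81 at 22 bases of this stretch and KRT83 at 5.

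The share of a keratin's main transcript whose 31-base words also occur in transcripts of other genes was 53.3% for KRT18, all of it through 64 KRT18 pseudogenes, 53.2% for KRT81 and 52.7% for KRT6A. It was 46.1% for KRT14, 39.5% for KRT16 and 34.6% for KRT17, and 4.87% to 11.4% for KRT5, KRT7, KRT8 and KRT19. No keratin pseudogene has a row in the files, so how the authors' counting divided such reads is not known. KRT6A, KRT14, KRT16, KRT17, KRT18 and KRT81 are therefore less certain as single genes than the other 4.

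The lines carried different sets of keratins. HCC1806 carried both groups, SUM159 the simple keratins with KRT7 far ahead, and MDAMB231 the simple keratins with KRT81. To compare genes, values were divided by the length of each gene's joined exons in kilobases. In SUM159 the median over its 4 libraries was 11990 per kilobase for KRT7, 1989 for KRT18 and 216 for KRT8, with no overlap between neighbours in that order. The other 7 keratins of SUM159 had medians of at most 43.6 per kilobase, and each overlapped the next in the order.

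In MDAMB231 the medians per kilobase were 5058 for KRT81, 3845 for KRT18, 3713 for KRT7 and 3426 for KRT19, and these 4 overlapped. KRT8 followed at 538 per kilobase, below the lowest library of KRT19. KRT5, KRT6A, KRT14, KRT16 and KRT17 had medians of at most 1.75 per kilobase there, highest for KRT5, whose undivided signal ran from 0 to 16.0. In HCC1806 the order was KRT18 at 17610 per kilobase, KRT19 at 10930, KRT7 at 8872, KRT5 at 5130 and KRT8 at 2138, and all neighbours overlapped. These medians pool libraries with and without JQ1. With DMSO alone the order in MDAMB231 was KRT18 at 4199 per kilobase, KRT7 at 3328, KRT81 at 2912 and KRT19 at 1656. In HCC1806 with DMSO it was KRT18 at 12833, KRT5 at 7635, KRT7 at 7258, KRT19 at 6780 and KRT8 at 1145. With mean transcript lengths in place of joined exons, KRT7 led in each line under DMSO. The order of the leading keratins in MDAMB231 and HCC1806 thus depends on the treatment and on the length used.

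**Figure D1:**
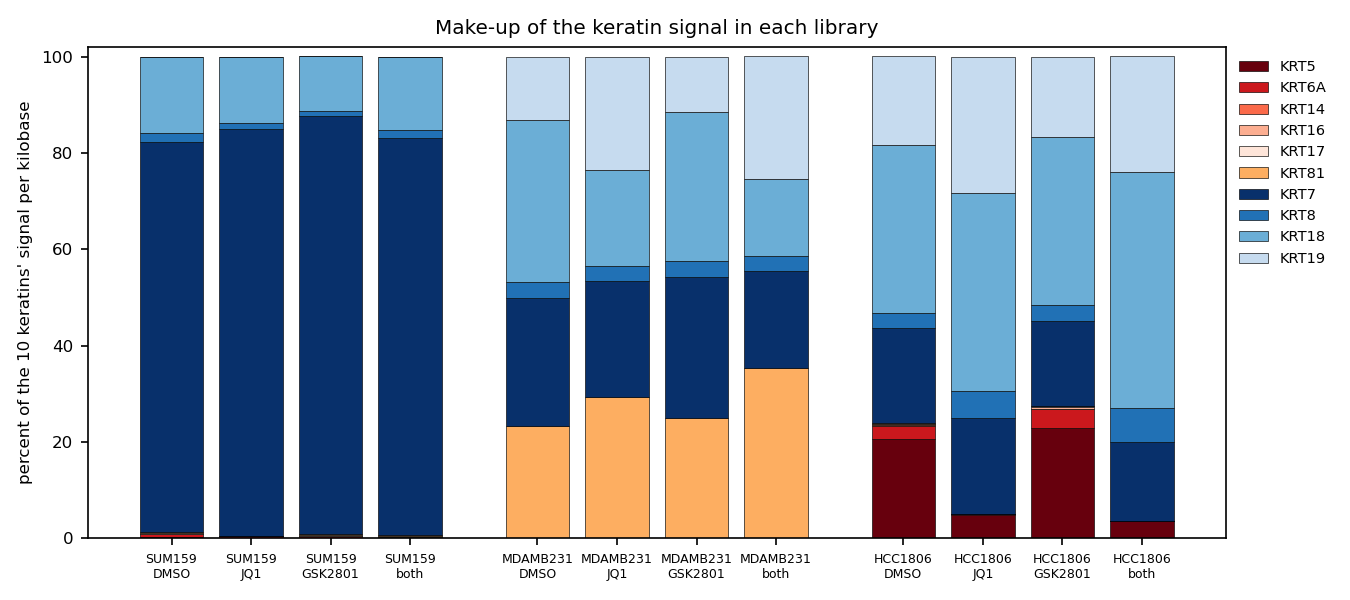
Stacked bars give the percent of the 10 keratins' signal per kilobase held by each gene, for each of the 12 libraries; reds and orange are KRT5, KRT6A, KRT14, KRT16, KRT17 and KRT81, and blues are KRT7, KRT8, KRT18 and KRT19. KRT7 fills most of each SUM159 bar, KRT81 is the orange share of MDAMB231, and the red and orange share of HCC1806 is 24.0% with DMSO and 4.99% with JQ1.

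Tests between lines used the moderated linear model of limma on log2(value + 1) with treatment as a covariate, and p-values adjusted by Benjamini-Hochberg over all tested genes at a threshold of 0.05. Here a line's 4 libraries are 4 treatments of it. Against the mean of SUM159 and MDAMB231, 7 of the 10 keratins were higher in HCC1806 and 1 was lower. Over all tested genes 72.6% passed this contrast, so passing is the usual case. The largest difference was in KRT5, higher by 10.05 ± 0.726 (SE) on the log2 scale in limma (adjusted p = 1.99e-06), followed by KRT19 at 6.98 ± 0.72 (2.03e-05) and KRT16 at 5.18 ± 0.767 (2.21e-04). The size for KRT19 rests mostly on SUM159 (0 to 18.8), as MDAMB231 held 2986 to 13970 and HCC1806 14980 to 36030. KRT16 did not exceed 7.45 in SUM159 or 1.33 in MDAMB231, so it was tested only because HCC1806 was high. Its call here thus follows in part from the filter. KRT14 too reached the minimum for testing only through HCC1806. KRT7 differed least, at 0.33 ± 0.108 (adjusted p = 0.0211 by limma). In each treatment its HCC1806 value lay below SUM159 and above MDAMB231, with DMSO at 29706, 35688 and 13620 in that order. KRT14 (adjusted p = 0.0548) and KRT17 (0.132) did not pass in limma. Without the HCC1806 library given both compounds KRT14 (0.0161) and KRT17 (0.00801) passed in limma and KRT7 (0.0927) did not. KRT81, lower by this contrast (-4.27 ± 0.768), overlapped between HCC1806 (6.04 to 158) and SUM159 (26.8 to 84.3), and only MDAMB231 lay above both.

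Between MDAMB231 and SUM159, 4 keratins were higher and 4 lower in MDAMB231 by limma, where 60.4% of all genes passed. The higher ones were KRT19 (10.33 ± 0.831, log2), KRT81 (7.46 ± 0.887), KRT8 (1.34 ± 0.228) and KRT18 (1.05 ± 0.218). The lower ones were KRT6A (-5.99 ± 1.12), KRT17 (-4.64 ± 0.918), KRT5 (-3.49 ± 0.838) and KRT7 (-1.5 ± 0.125). KRT14 and KRT16 did not pass, and both stood near the level of single reads in MDAMB231.

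With JQ1, the simple keratins KRT7 and KRT8 rose across the lines, and no keratin passed the test downwards. KRT7, the type II keratin of glandular ducts, stood in SUM159 at 35688 with DMSO, 57384 with JQ1, 47660 with GSK2801 and 50468 with both. The same 4 libraries of MDAMB231 gave 13620, 25146, 13482 and 16773, and those of HCC1806 gave 29706, 43515, 27639 and 42923. Every JQ1 library was above its own DMSO library, by 1.46 to 1.85 times. In limma, with line as a block, KRT7 rose by 0.71 ± 0.144 on the log2 scale (n = 3 lines, adjusted p = 0.0099).

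KRT8, the type II partner of KRT18, stood in SUM159 at 1332 with DMSO, 1638 with JQ1, 1075 with GSK2801 and 1752 with both. In MDAMB231 the values were 2962, 5271, 2430 and 4442, and in HCC1806 they were 7880, 20716, 8702 and 30847. With JQ1 all 3 lines moved the same way, from 1.23 times in SUM159 to 2.63 times in HCC1806, while the lines stayed apart in level. The limma change was 0.84 ± 0.264 (adjusted p = 0.049). Of the 10 keratins 2 thus rose and 0 fell, where 9.52% of all tested genes rose, 13.1% fell and 22.6% passed in either direction, so the count is near that of genes at large. The median log2 change of the 10 was -1.08, and that of all tested genes -0.08.

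KRT7 passed limma in each of the 12 fits that leave out a single library (adjusted p = 0.00863 to 0.0444). It no longer passed limma when the whole of SUM159 (adjusted p = 0.0559), MDAMB231 (0.071) or HCC1806 (0.0789) was left out. KRT8 lost its call in 18 of 24 alternatives, among them 9 of the 12 that leave out a single library. KRT8 still passed without the SUM159 DMSO library or without the combination library of MDAMB231 or HCC1806. Within a line, the library with JQ1 and the one with both carry the same JQ1 response, so these p-values may be too small. As these are bulk libraries, a change in RNA per cell and a change in which cells survived 72 h cannot be told apart.

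KRT18, the type I partner of KRT8, stood in SUM159 at 5482 with DMSO, 7318 with JQ1, 4882 with GSK2801 and 7329 with both. In MDAMB231 the values were 13513, 16385, 11231 and 10483, and in HCC1806 they were 41297, 70551, 42786 and 100826. All 3 JQ1 libraries were above their DMSO libraries, but the limma change of 0.49 ± 0.252 did not pass (adjusted p = 0.19).

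KRT19, the smallest type I keratin, stood in MDAMB231 at 3868 with DMSO, 13965 with JQ1, 2986 with GSK2801 and 12136 with both, and in HCC1806 at 15838, 35237, 14984 and 36032. Both lines were higher in the 2 libraries with JQ1 than in the 2 without. SUM159 held little of it, 18.8 with DMSO, 4.37 with GSK2801 and 5.67 with both, and it was listed at 0 with JQ1. Over the 3 lines KRT19 had a log2 change of -0.43 ± 0.959 in limma (adjusted p = 0.775). Without SUM159 it was 1.5 ± 0.26 (adjusted p = 0.0337 by limma), so the direction for KRT19 rests on that line.

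**Figure D2:**
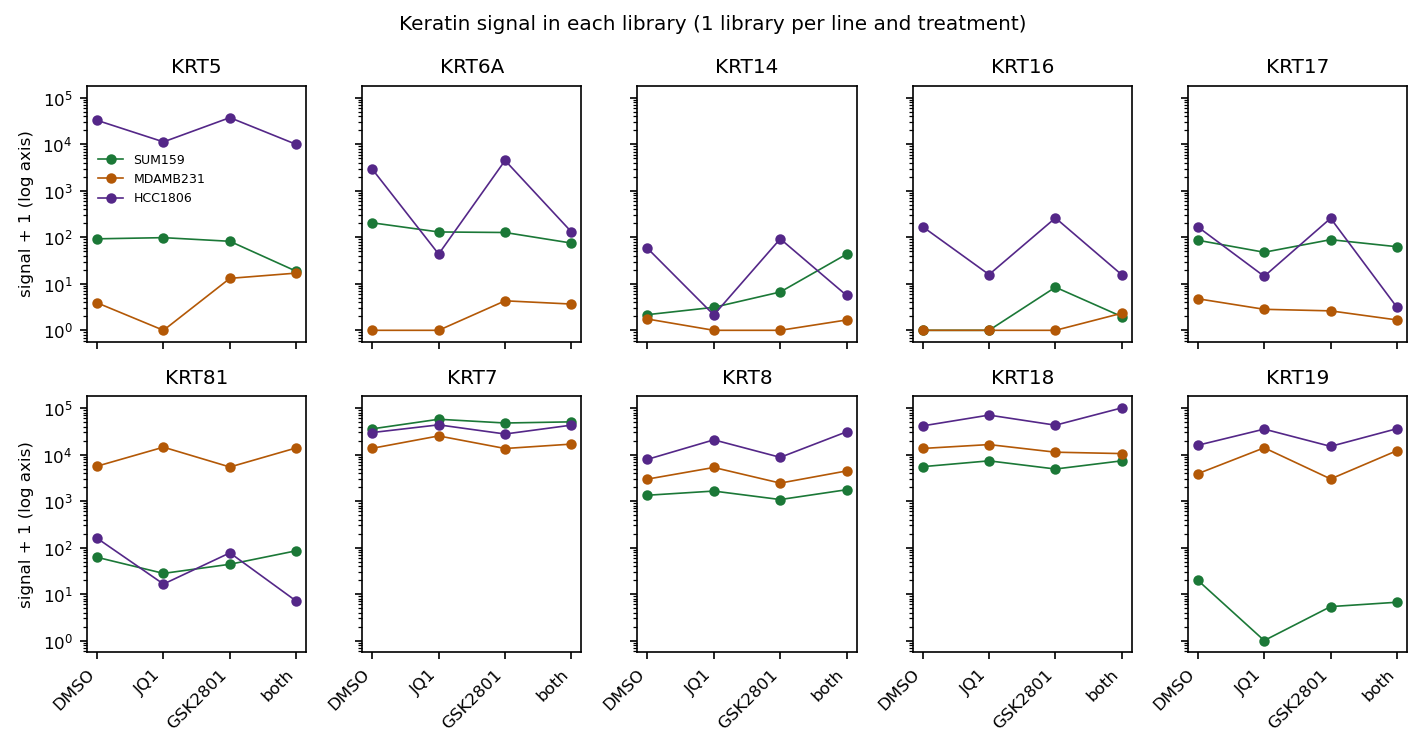
Each panel is 1 keratin, with the deposited signal plus 1 on a log axis against treatment, and 1 point per library joined within a line. The 4 simple keratins (last panels) are high in most libraries, and in HCC1806 the points of KRT6A, KRT14, KRT16 and KRT17 drop with JQ1 and with both compounds.

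The keratins of stratified epithelium were lower with JQ1 in HCC1806, where most of their RNA was found. KRT6A stood at 2927 with DMSO and 42.6 with JQ1 in this line, and at 4493 with GSK2801 and 129 with both. The libraries with JQ1 were thus below those without it, by 68.7 times for JQ1 against DMSO. In SUM159 KRT6A was 204 with DMSO, 129 with JQ1, 126 with GSK2801 and 74.1 with both, and in MDAMB231 it was listed at 0 with DMSO and JQ1 and reached at most 3.31.

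KRT16, a type I keratin of wounded epidermis, stood in HCC1806 at 168 with DMSO, 14.8 with JQ1, 260 with GSK2801 and 14.6 with both. KRT17, likewise a keratin of activated epidermis and of hair follicles, stood at 167, 13.5, 255 and 2.11 in the same order. In each case the libraries with JQ1 lay below those without. In SUM159 KRT17 was 85.5, 46.7, 88.0 and 61.7 for the same treatments, lowest with JQ1, and in MDAMB231 it did not exceed 3.77. KRT16 was listed at 0 with DMSO in SUM159 and MDAMB231 and stayed at or below 7.45 there.

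KRT14, the type I partner of KRT5, was low in every library. In HCC1806 it was 57.1 with DMSO, 1.14 with JQ1, 91.6 with GSK2801 and 4.61 with both. In SUM159 it ran the other way, at 1.17, 2.12, 5.67 and 42.5 for the same treatments, and in MDAMB231 it did not exceed 0.754. The fall in HCC1806 ends at about the value of a single read, so its size is poorly fixed.

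KRT5, the type II keratin of basal cells, was the most abundant of these 5 in each HCC1806 library. In HCC1806 it was 32771 with DMSO, 11269 with JQ1, 37479 with GSK2801 and 9941 with both, so the JQ1 library was 2.91 times below DMSO. In SUM159 it was 91.8 with DMSO, 97.3 with JQ1, 81.1 with GSK2801 and 17.6 with both, only the last of which stood apart, and KRT6A exceeded it in all 4 libraries, also per kilobase. MDAMB231 did not exceed 16.0.

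Over the 3 lines none of these 5 genes passed limma for JQ1 against DMSO. KRT6A had a log2 change of -2.24 ± 1.3 (adjusted p = 0.241), KRT17 of -1.71 ± 1.06 (0.272), KRT14 of -1.68 ± 1.36 (0.397), KRT5 of -1.14 ± 0.968 (0.422) and KRT16 of -1.14 ± 1.02 (0.448). The ratios of single lines spread widely, for KRT6A from -6.07 in HCC1806 to 0.0 in MDAMB231, where it was listed at 0 in both libraries. Counting within lines, on signal plus 1 and with no test, 6 of the 10 keratins were at least 2-fold lower with JQ1 in HCC1806 (KRT5, KRT6A, KRT14, KRT16, KRT17 and KRT81), against 10.1% of all tested genes. In SUM159 2 keratins were (KRT19 and KRT81, against 13.3%), and in MDAMB231 1 (KRT5, from 2.9 to a value listed at 0, against 9.17%). At least 2-fold higher with JQ1 were KRT8 and KRT19 in HCC1806 (10.9% of all tested genes were), KRT19 and KRT81 in MDAMB231 (8.78%) and none in SUM159 (4.43%). In these counts KRT14 and KRT16 reached the mean of 10 needed for testing only through HCC1806.

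**Figure D3:**
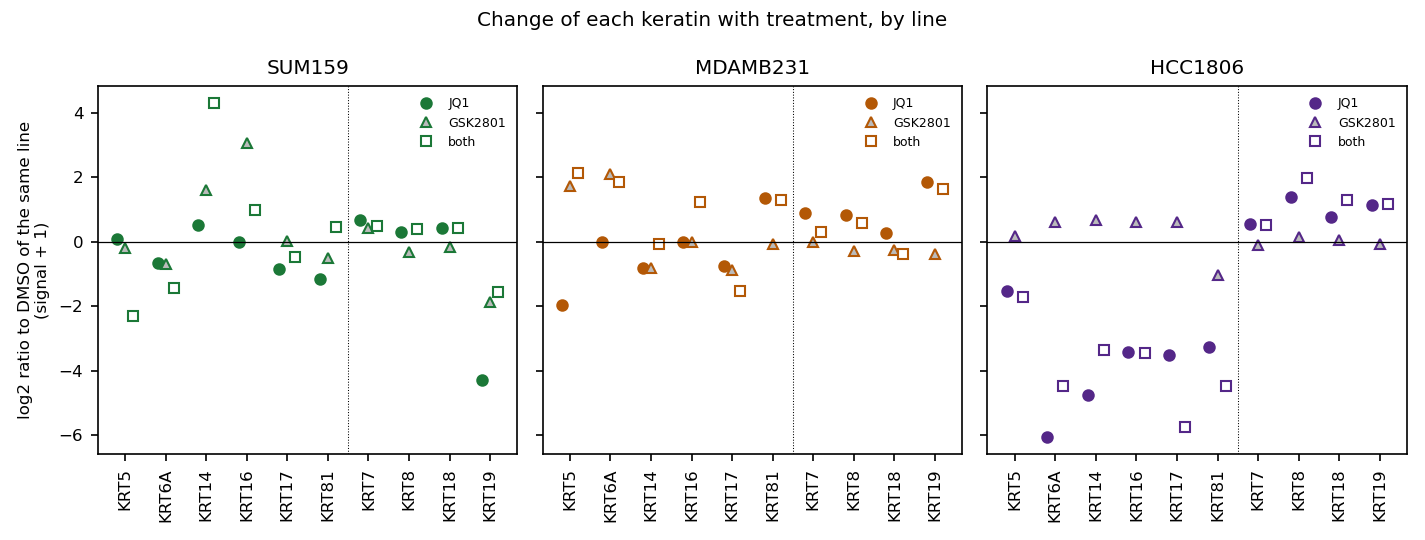
Log2 ratio of each treated library to the DMSO library of the same line, on signal plus 1, with 1 panel per line; filled circles are JQ1, grey triangles GSK2801 and open squares both, and the dotted line divides the 6 basal and hair keratins from the 4 simple ones. In HCC1806 the JQ1 and combination points of all 6 lie below 0 and those of the 4 simple keratins above 0.

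Whether the JQ1 response differed between lines was tested in a limma model with a JQ1 and a GSK2801 effect for each line. The JQ1 effect in HCC1806 was compared with the mean of the other lines, each effect being averaged over the libraries without and with GSK2801. Of the 10 keratins, 5 had a lower JQ1 effect in HCC1806 and 2 a higher one, where 10.6% and 14.5% of all tested genes did. The difference was -5.18 ± 0.369 (log2) for KRT6A (adjusted p = 4.69e-04 in limma), -5.19 ± 0.766 for KRT14 (0.0043), -4.25 ± 0.736 for KRT17 (0.0075), -4.00 ± 0.507 for KRT81 (0.00268) and -3.52 ± 0.72 for KRT16 (0.0133). For KRT14 the size rests on values at 0 or near 1 read, in HCC1806 with JQ1 and in most libraries of the other lines. KRT16 was listed at 0 with DMSO in SUM159 and MDAMB231, and KRT6A with DMSO in MDAMB231, so neither could fall there. KRT17 did not exceed 3.77 in MDAMB231. KRT16 stayed at or below 7.45 outside HCC1806, so it reached the mean of 10 needed for testing only through that line. The same holds for KRT14, which averaged 12.9 in SUM159 and 0.355 in MDAMB231, below 10 for those lines together. The count of 5 thus depends in part on which genes had signal to lose outside HCC1806. It also depends on the testing of KRT14 and KRT16 through HCC1806 alone.

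KRT8 at 0.93 ± 0.156 (adjusted p = 0.00665 in limma) and KRT18 at 0.71 ± 0.168 (0.0219) had the higher effect in HCC1806. KRT5 did not pass (-0.82 ± 0.754, adjusted p = 0.457 in limma). In MDAMB231 KRT5 did not exceed 16.0, and in SUM159 its log2 steps with JQ1 were 0.08 without GSK2801 and -2.14 with it. The test therefore does not show that KRT5 responded alike in all lines. KRT7 (0.10 ± 0.216, 0.755) and KRT19 (1.24 ± 1.04, 0.411) did not pass in limma either. What is left over in this model, on 3 degrees of freedom, is how far the compounds' effects fail to add up within lines, so its p-values reflect that scatter and no replicate cultures. When any 1 of the 4 HCC1806 libraries was left out, KRT6A and KRT17 still passed in limma while KRT8, KRT14, KRT16, KRT18 and KRT81 did not. KRT18 lost its call in 12 of 21 alternatives.

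**Figure D4:**
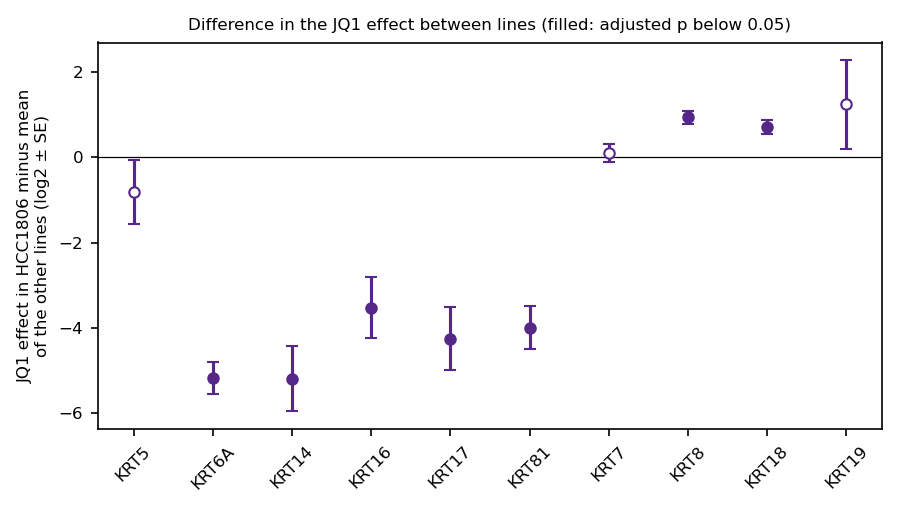
Points give the JQ1 effect in HCC1806 minus the mean effect in SUM159 and MDAMB231 for each keratin (log2), bars the standard error from limma, and filled points an adjusted p below 0.05. KRT6A, KRT14, KRT16, KRT17 and KRT81 lie between -5.19 and -3.52, and KRT8 and KRT18 at 0.93 and 0.71.

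KRT81 behaved differently in each line. In MDAMB231 it was 5618 with DMSO, 14409 with JQ1, 5394 with GSK2801 and 13895 with both, so the libraries with JQ1 were 2.47 to 2.56 times the DMSO library. In HCC1806 it was 158, 15.4, 75.9 and 6.04 in the same order, and in SUM159 60.7, 26.8, 42.7 and 84.3. Over the lines the JQ1 change was -1.02 ± 1.02 (log2, adjusted p = 0.498 in limma).

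The near-copies followed the same course in MDAMB231. KRT86 was 553 with DMSO, 1476 with JQ1, 501 with GSK2801 and 1198 with both, and KRT83 was 32.5, 89.3, 27.3 and 71.6. Whether these are separate transcripts or reads of KRT81 assigned to its copies was not tested. In SUM159 KRT86 (42.2 to 166) exceeded KRT81 in every library, so there the pair did not keep the same ratio.

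**Figure D5:**
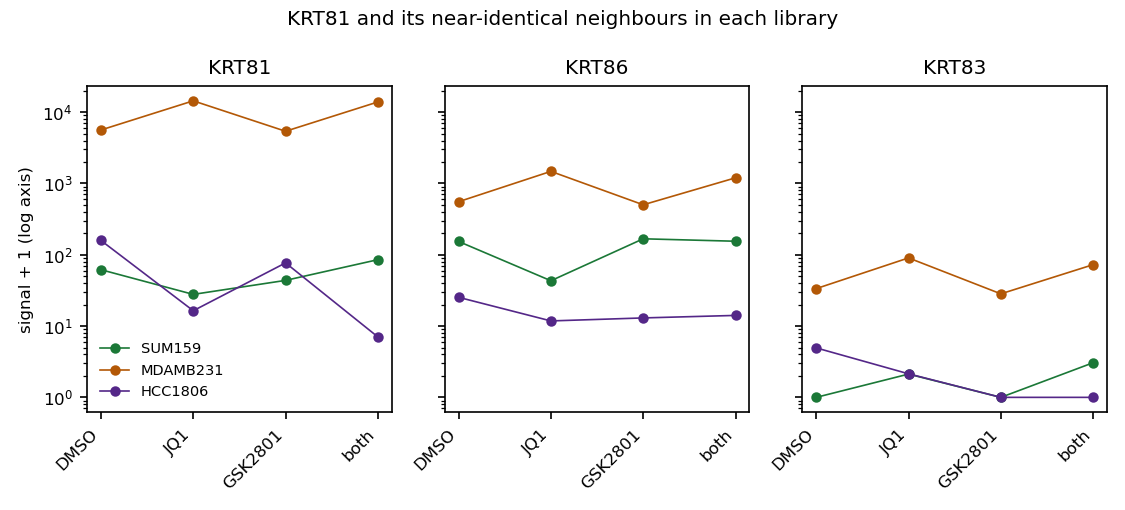
Deposited signal plus 1, on a log axis, of KRT81, KRT86 and KRT83 by treatment, with 1 point per library joined within a line. In MDAMB231 all 3 are higher with JQ1 and with both compounds than with DMSO, and KRT81 lies about an order of magnitude above KRT86.

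GSK2801 alone moved no keratin past the threshold in limma. None of the 14232 genes passed (0.00%), although 161 had an unadjusted p under 0.05, none of them a keratin of the 10. The limma changes ranged from -0.78 ± 0.959 for KRT19 to 1.24 ± 1.02 for KRT16 (log2). In HCC1806 KRT6A, KRT14, KRT16 and KRT17 were each 1.53 to 1.61 times their DMSO value, and KRT81 was 2.08 times below it, the only keratin there at least 2-fold lower (1.86% of all tested genes were). These ratios are from single libraries and have no test.

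With both compounds KRT7 and KRT8 were again the keratins that rose, while 34.8% of all tested genes passed. KRT7 was 1.23 to 1.44 times its DMSO value in the 3 lines, with a limma change of 0.44 ± 0.144 (log2, adjusted p = 0.0408). KRT8 was 1.32 to 3.91 times its DMSO value, lowest in SUM159 and highest in HCC1806, a limma change of 0.98 ± 0.264 (adjusted p = 0.0195). The 3 DMSO libraries are the same ones that JQ1 and GSK2801 were compared with, so these calls are not independent of those for JQ1. KRT7 lost this call in 15 of 24 alternatives. Among these were leaving out SUM159 (adjusted p = 0.138 in limma), MDAMB231 (0.0769) or HCC1806 (0.186), and 7 of the 12 single libraries, namely any DMSO library, the combination library of SUM159 or HCC1806, MDAMB231 with GSK2801 and HCC1806 with JQ1. KRT8 lost it in 6, among them leaving out MDAMB231 (0.0717 in limma), HCC1806 (0.0904), or the HCC1806 library with DMSO (0.072) or with both compounds (0.0528).

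Against GSK2801 alone, adding JQ1 raised KRT8 by 1.13 ± 0.264 (log2, adjusted p = 0.0131 in limma) and no other keratin passed, where 29.0% of all genes did. The call was lost without MDAMB231 (adjusted p = 0.0696 in limma) and without the HCC1806 library given GSK2801 (0.0593). Against JQ1 alone, adding GSK2801 moved none of the 10, and no gene passed in limma (0.00%, with 1031 at an unadjusted p under 0.05). The test of departure from additivity likewise called no gene (0.00%, with 171 at an unadjusted p under 0.05 in limma). In single libraries of HCC1806, KRT8 was 20716 with JQ1 and 30847 with both, and KRT18 70551 and 100826. The matching KRT8 values in MDAMB231 were 5271 and 4442, so the lines did not share this step.

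In HCC1806 with both compounds, 6 keratins were at least 2-fold below DMSO (13.5% of all tested genes were) and 3 at least 2-fold above (11.5%). The lower ones were KRT5, KRT6A, KRT14, KRT16, KRT17 and KRT81, from 3.3 times (KRT5) to 26.1 times (KRT81) where a fold can be given, and the higher ones KRT8, KRT18 and KRT19, from 2.28 to 3.91 times. KRT17 went from 167 to 2.11, about 2 reads, too few to fix a fold. All 9 comparisons are of single libraries, with no test. Among the lower ones KRT14 and KRT16 reached the minimum for testing only through HCC1806.

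Expressed as a share of the 10 keratins' signal per kilobase, the 6 basal and hair keratins made up 24.0% in HCC1806 with DMSO, 4.99% with JQ1, 27.5% with GSK2801 and 3.70% with both. The libraries without JQ1 were alike and the libraries with it lay far below them. Most of this share was KRT5, with 20.7% under DMSO and 4.93% under JQ1, and KRT5 did not pass the test of the line difference. Both sides of the share moved, since from DMSO to JQ1 the summed signal per kilobase went from 8863 to 2659 for the 6 and from 28020 to 50650 for the 4 simple keratins. With other length measures the DMSO value ranged from 22.2% to 25.3% and the JQ1 value from 4.70% to 5.70%. In MDAMB231 the same share was 23.3%, 29.4%, 25.0% and 35.3%, nearly all of it KRT81, and it dropped to 7.45% with DMSO under mean transcript lengths. In SUM159 it did not exceed 1.40%.

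The remaining keratins were mostly too low to test. Of 44 further keratin genes in the files, 30 were above 0 in some library and 10 were tested. With JQ1, KRT34 (a hair keratin, -2.62 ± 0.782) and KRT10 (the type I keratin of the upper epidermis, -0.46 ± 0.128) fell in limma, and none rose, where 13.1% of all tested genes fell and 9.52% rose. KRT34 went from 19.9 with DMSO to 1.06 with JQ1 in SUM159, from 24.6 to 1.14 in HCC1806 and from 39.2 to 20.1 in MDAMB231. Its size is poorly fixed, as the first 2 falls end at about 1 read. The JQ1 effect was lower in HCC1806 than in the other lines for 4 of the 10, namely KRT23 (-4.00 ± 0.749), KRT75 (-2.49 ± 0.612), KRT4 (-2.26 ± 0.445) and KRT83 (-1.98 ± 0.538), and higher for none, against 10.6% and 14.5% of all tested genes. In HCC1806 KRT75 did not exceed 8.2 and KRT83 3.94, a few reads each. KRT83 was 32.5 with DMSO and 89.3 with JQ1 in MDAMB231, which enters its difference. KRT4, a keratin of mucosal linings, went from 364 with DMSO to 87.7 with JQ1 in HCC1806 and did not exceed 0.91 in the other lines. KRT15, a basal keratin, went from 151 to 396 in HCC1806.

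The proteins that tie keratins to desmosomes and hemidesmosomes were looked at as a list of 20 genes, all of them tested. With JQ1, JUP (plakoglobin, 1.31 ± 0.383) rose and TCHP (trichoplein, -0.68 ± 0.19) fell across the lines, with a list median of -0.04 against -0.08 for all genes. No other gene of the list passed, where 9.52% of all tested genes rose and 13.1% fell. For the line difference, 6 of the 20 had a lower JQ1 effect in HCC1806 and 2 a higher one, where 10.6% and 14.5% of all tested genes did. The lower ones included DSG3 (desmoglein 3, -3.75 ± 0.57) and COL17A1 (a hemidesmosomal collagen, -3.21 ± 0.308), and the higher ones were PKP3 (plakophilin 3, 1.86 ± 0.226) and FAM83H (0.61 ± 0.135). COL17A1 in HCC1806 was 23780 with DMSO and 2044 with JQ1. DSG3 did not exceed 1.06 in the other lines, so it had almost nothing to lose there. In HCC1806 PKP3 was 3871 with DMSO and 3636 with JQ1, and FAM83H 9824 and 9210, so neither was above DMSO. In SUM159 PKP3 was 1678 and 434, and FAM83H 1608 and 761.

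Among 18 genes of the cornified layer only 6 had enough signal to test. CNFN (cornifelin, 2.41 ± 0.319) rose with JQ1 and none fell, where 9.52% of all tested genes rose and 13.1% fell. KLK10 (-4.42 ± 0.581) and S100A9 (-3.15 ± 0.752) had a lower JQ1 effect in HCC1806 (10.6% of all tested genes did). KLK10 did not exceed 1.17 in the other lines. S100A9 was low in HCC1806, at 13.9 with DMSO and 3.42 with JQ1. In SUM159 it was higher with JQ1, at 58.6 with DMSO and 104 with JQ1, and 84.0 with GSK2801 and 906 with both. That rise enters its difference. Of 8 tested genes for other intermediate filaments, LMNA (lamin A and C, 0.53 ± 0.147) rose with JQ1 in limma and none fell, against the same 9.52% and 13.1%. INA (internexin, 7.44 ± 0.551), SYNM (synemin, 1.90 ± 0.213) and LMNB1 (lamin B1, 1.25 ± 0.215) had a higher JQ1 effect in HCC1806 (14.5% of all tested genes did). INA was listed at 0 in every library except HCC1806 with JQ1 (121) and with both compounds (246). It was tested only because these libraries held signal, so its call follows from the filter and its size is not fixed. LMNB1 did not rise in HCC1806, at 4486 with DMSO and 4175 with JQ1, and was 5503 and 1911 in MDAMB231.

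Of 22 tested regulators of epithelial genes, KLF5 (0.82 ± 0.095) and NOTCH1 (0.42 ± 0.109) rose with JQ1, and KLF4 (-0.66 ± 0.198) and JAG1 (-0.54 ± 0.152) fell. Of all tested genes 9.52% rose and 13.1% fell, so these counts do not exceed those of genes at large. In HCC1806, 4 of the 22 had a higher JQ1 effect than in the other lines and 3 a lower one, where 14.5% and 10.6% of all tested genes did. The higher ones were ELF3 (3.77 ± 0.371), ESRP1 (1.91 ± 0.479), FOXC1 (1.80 ± 0.117) and TFAP2A (1.29 ± 0.109), and the lower ones SOX9 (-1.87 ± 0.368), GRHL3 (-1.84 ± 0.489) and RUNX1 (-0.45 ± 0.109). TP63, the regulator of basal epithelium, was 4737 with DMSO and 4959 with JQ1 in HCC1806, where KRT5 was 2.91 times lower. In SUM159 TP63 was 1831 with DMSO and 388 with JQ1. ELF3, an epithelial transcription factor, was 1175 with DMSO and 5556 with JQ1 in HCC1806. ESRP1 was 4442 and 3951 there, and RUNX1 2374 and 2319, so their line differences came largely from the other lines.

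Markers of breast cell types moved in part with the keratins. Of 14 tested luminal markers, which include KRT8, KRT18 and KRT19, 6 had a higher JQ1 effect in HCC1806 and none a lower one, against 14.5% and 10.6% of all tested genes. Those 6 were KRT8 and KRT18 with CDH1 (2.76 ± 0.384), EPCAM (1.47 ± 0.324), GATA3 (1.46 ± 0.175) and FOXA1 (1.19 ± 0.243). Across the lines KRT8 rose with JQ1 and XBP1, a luminal transcription factor, fell (-0.59 ± 0.14, adjusted p = 0.0179 in limma). Of all tested genes 9.52% rose and 13.1% fell. In HCC1806 itself EPCAM was 14290 with DMSO and 11490 with JQ1, so its difference came from lower values in the other lines. CDH1 was 14150 and 23170 in HCC1806, and 30.5 and 1.06 in SUM159. Much of the size for CDH1 thus rests on a few reads in SUM159. GATA3 (1085 and 2576) and FOXA1 (720 and 1875) were higher with JQ1 in HCC1806 itself. Of 14 tested basal or myoepithelial markers, 3 had a lower JQ1 effect in HCC1806 (KRT14, KRT17 and the laminin gene LAMA3, -1.61 ± 0.099). There 1 had a higher one (ACTA2, 2.84 ± 0.707), against 10.6% lower and 14.5% higher among all tested genes. Outside the keratins LAMA3 was thus the only lower call of this list. Across the lines CAV1 (caveolin 1, -0.78 ± 0.169) of the basal list fell with JQ1 in limma, and none rose, against 13.1% and 9.52% of all tested genes. The summed basal list, which includes KRT5, ranged from 143900 to 271400 over the HCC1806 libraries, and CNN1 was listed at 0 in all 4. The summed luminal list ranged from 104000 to 219000 there, with PGR listed at 0. The part of a changed mix of cells in the keratin changes was not tested.

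After each line's mean was taken off, KRT8 correlated with KRT18 over the 12 libraries at r = 0.884, and KRT17 with KRT8 at r = -0.878 (Pearson, log2 values). KRT6A correlated with KRT17 at 0.754 and KRT16 at 0.751, and KRT19 with no other keratin beyond 0.41. The libraries share lines, treatments and scaling, and the values are given as a description. The genes most like each keratin in this measure included SERPINB5 (r = 0.952) and CD109 (0.947) for KRT5, CNIH1 (0.967) and PTPRZ1 (0.967) for KRT6A, and SLC9A3R1 (0.981) and TNKS2 (0.98) for KRT8. For KRT7 they were FBXO3 (0.962) and ETV3 (0.93), for KRT18 HNRNPUL2 (0.959), for KRT17 LINC01322 (0.983), for KRT19 ZNF345 (0.969), for KRT81 SP140L (0.956), for KRT14 VPS25 (0.963) and for KRT16 CANT1 (0.965).

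The antisense gene KRT7-AS, which lies opposite KRT7, had values of 60.8 to 297. The labels name both a stranded and an unstranded kind of library kit, so reads of KRT7 and KRT7-AS, and of KRT8 and KRT18 where they overlap, cannot be told apart by strand here.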

How the data were processed

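Polyadenylated RNA from SUM159, MDAMB231 and HCC1806 was sequenced after a 72 h treatment. Per the submitters' processing notes, the authors used STAR 2.4, Salmon 0.60 and hg38. The annotation and scaling are not given in the sources used here, and the labels disagree on the library kit (KAPA Stranded or Illumina TruSeq). The deposited unit is signal: estimated reads scaled by the authors to an upper quartile of 1663.93 in every library, of which 67.2% to 69.3% of values above 0 were whole multiples of 1 step (tolerance 0.02). Of 28539 entries, 27 with symbols turned into dates were left out.

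From these values log2(value + 1) was fitted with limma 3.58.1 in R 4.3.3, with a variance trend, treatment and line as a block (6 residual and 3.02 prior degrees of freedom). The line-specific model had 3 residual and 4.48 prior degrees of freedom. Genes with a mean value of at least 10 were tested and p-values adjusted by Benjamini-Hochberg over all of them (threshold 0.05). The fits were tested on simulated data. Replicate numbers are the lines, which pairs libraries by source: deviations from treatment means correlated at 0.872 to 0.972 within a line and at -0.596 to -0.306 between lines. TMM (trimmed mean of M-values) divisors were computed from the deposited values. Coding sequences were aligned with MAFFT 7.526. Coordinates and sequences are from GENCODE v29 (GRCh38).

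All 10 keratins are named in every treatment contrast, and from each list the genes past the threshold, at most 4 per direction. A result for a listed gene is not reported here. For likeness the 3 nearest genes per keratin were computed and the first 1 or 2 are given. Levels of KRT4, KRT15, KRT34, KRT75 and KRT83 were picked after their values were seen. The same holds for the values of TP63, ELF3, ESRP1, RUNX1, COL17A1, DSG3, PKP3, FAM83H, KLK10, LMNB1, EPCAM, INA, S100A9, CDH1, GATA3 and FOXA1. The keratins and lists were chosen with earlier results of these data known. Pseudocounts of 0.1 and 10, filters, TMM and quantile scaling, left-out libraries and lines, and the model without the block were tried as alternatives.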

Additional observations from a re-analysis of the deposited data

Results flagged for a closer look

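The JQ1 effect differed between HCC1806 and the mean of the other lines, by limma with Benjamini-Hochberg adjustment, for 7 keratins. The differences were -5.18 for KRT6A, -5.19 for KRT14, -3.52 for KRT16, -4.25 for KRT17 and -4.00 for KRT81 (log2). For KRT8 the difference was 0.93 and for KRT18 it was 0.71. KRT6A, KRT14, KRT16 and KRT17 had almost no signal with DMSO in SUM159, MDAMB231 or both, so little or no fall could show there. Of these, KRT14 and KRT16 were tested only through their signal in HCC1806.

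For some keratins the 2 libraries of one line with a compound moved opposite to those of another line, against the matching libraries without it. These pairs of lines were not tested against each other. With JQ1, KRT14 was higher in SUM159 and lower in HCC1806, a difference of -6.02 (HCC1806 minus SUM159) on log2(value + 1) whose size is poorly fixed, as it rests on values near 1 read in both lines. KRT81 was higher in MDAMB231 and lower in HCC1806, a difference of -4.72. With GSK2801, KRT6A was lower in SUM159 and higher in HCC1806 (1.84). KRT8 (0.62) and KRT18 (0.74) were lower with GSK2801 in MDAMB231 and higher in HCC1806.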

How the results depend on the processing

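Of 2102 keratin values recomputed under alternatives, 1890 had the direction and side of the threshold reported, 85 lost a call and 20 gained one. The sign changed in 107, of which 103 passed in neither fit and lay within 1 SE of 0 as reported. The other 4 were KRT19 with JQ1 without replicate 1 (SUM159; 1.5), KRT16 with JQ1 without replicate 3 (HCC1806; 0.0), KRT6A with both compounds without replicate 3 (0.21) and the KRT19 line difference without replicate 1 (-0.73). With a line or library left out, these values ranged from -1.58 to 1.5, -1.87 to 0.0, -2.97 to 0.21 and -0.73 to 3.21. The fit without the replicate block, where differences between lines enter the error, called 0 keratins higher with JQ1, with both compounds against DMSO, and with both against GSK2801. Restricting the fit to the 6 libraries compared also gave 0 in each. For JQ1 the count of 2 became 1 with a pseudocount of 0.1 or 10, no filter or no variance trend, 0 to 1 with a line left out and 1 to 2 with a library left out. For both compounds against DMSO it became 1 with no filter, quantile scaling or no trend, and ranged from 0 to 3 with a line or library left out. There the count lower was 0 to 1, as KRT5 passed without MDAMB231 (-2.02, adjusted p = 0.0472 by limma). Against GSK2801 the count higher ranged from 0 to 2 and the count lower from 0 to 1 with a line or library left out. The 5 keratins with a lower JQ1 effect in HCC1806 became 3 with a pseudocount of 0.1 or a mean value of at least 50, and 2 to 6 with a line or library left out. The 2 with a higher effect became 1 without the trend and ranged from 0 to 2. Leaving out lines or libraries in that model was added after seeing the data, as was the longest transcript length. With JQ1, 58.0% of all calls were lower as deposited and 46.3% after TMM rescaling, and KRT7 and KRT8 passed in both. Each line and treatment has 1 library, so differences between cultures could not be measured, and values near that of 1 read, as for KRT14 and KRT16 outside HCC1806, support no fold.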
